A study of Mus musculus with 899 samples.

Results

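The miR-106a to miR-363 cluster is a group of small RNA genes on the mouse X chromosome, and 4 of its mature products were followed in plasma: miR-106a-5p, miR-18b-5p, miR-20b-5p and miR-363-3p. They were taken by name from a table of 1915 mature miRNA, and all 4 were among the 483 miRNA abundant enough to be tested. They were chosen by their log2 fold changes between irradiated and sham mice 1 month after exposure. These were already known from these data to be positive. That difference is therefore only described here, and counts of values that passed a threshold at month 1 are not a test of it. The strain difference of miR-106a-5p was known as well.

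Plasma miRNA was sequenced from blood of 196 mice of the strains C3Hf/Sed/Kam (C3H) and C57Bl/6. Mice received a single dose of X-rays to the whole thorax (64 C3H and 68 C57Bl/6) or sham treatment (32 of each strain), and no gene was altered in any group. Blood was taken before irradiation, on day 2 or day 5, and then monthly, to month 4 in C3H and month 6 in C57Bl/6 mice. In both strains the mice of cohort 1 were followed to the end and those of cohort 2 to month 1, with males and females in each cohort. All mice were gnotobiotic, and the same mice were bled repeatedly, so the late irradiated groups hold only the mice that were still sampled (17 C3H at month 4 and 8 C57Bl/6 at month 6). Of the irradiated C57Bl/6 mice, 4 females have no sample from before irradiation.

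miRNA are short RNA that bind messenger RNA mainly through their seed, bases 2 to 8 from the 5′ end, and lower the output of the bound messenger. The miR-106a to miR-363 cluster is a paralog of the miR-17 to miR-92a cluster and of the miR-106b to miR-25 cluster, which arose by duplication and share seeds. Members with the miR-17 seed are known to repress inhibitors of the cell cycle such as Cdkn1a, and the X-linked cluster is known as a site of retroviral insertion in mouse T cell leukemia. The miR-17 to miR-92a and miR-106b to miR-25 clusters are active in blood-forming and other dividing cells. In plasma, fewer cells that release a miRNA and less release per cell cannot be told apart.

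The members are shown beside the paralogs they resemble, because the differences between them decide what the read counts can separate. Sequences are the mature forms in RefSeq (GRCm38.p6), where all 4 members were found, and capitals mark the seed.
mmu-miR-106a-5p: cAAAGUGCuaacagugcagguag
mmu-miR-17-5p: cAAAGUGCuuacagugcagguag
mmu-miR-20b-5p: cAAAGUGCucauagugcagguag
mmu-miR-20a-5p: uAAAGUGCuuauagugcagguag
mmu-miR-18b-5p: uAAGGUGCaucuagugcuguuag
mmu-miR-18a-5p: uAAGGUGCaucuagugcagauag
mmu-miR-363-3p: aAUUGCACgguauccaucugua
mmu-miR-92a-3p: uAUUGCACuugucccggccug

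miR-106a-5p and miR-20b-5p carry the seed AAAGUGC, which miR-17-5p, miR-20a-5p, miR-93-5p and miR-106b-5p share. miR-18b-5p and miR-18a-5p carry AAGGUGC, and miR-363-3p carries AUUGCAC with miR-92a-3p and miR-25-3p. Counted from the 5′ end and written from paralog to member, miR-106a-5p differs from miR-17-5p by the substitution U10A alone. miR-20b-5p differs from miR-20a-5p by U1C and U10C, and miR-18b-5p from miR-18a-5p by A18U and A20U. Among themselves, miR-20b-5p and miR-106a-5p differ by C10A and U12C. miR-363-3p is the exception, with 11 of 21 compared positions different from miR-92a-3p and 0 of them in the seed.

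The cluster spans 875 bases of chromosome X on the minus strand (GRCm38, chrX:52741693-52742567) and holds 6 hairpins in the order Mir106a, Mir18b, Mir20b, Mir19b-2, Mir92-2 and Mir363. Gaps between neighboring hairpins measured 46 to 138 bases. Mir106a (chrX:52742503-52742567) overlaps the processed transcript Kis2 (chrX:52742563-52744960) by 5 bases in the GENCODE vM21 annotation. The mature products miR-19b-3p and miR-92a-3p of this cluster are identical to those of the miR-17 to miR-92a cluster on chromosome 14, so their reads cannot be assigned to either locus and they are not members here.

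The members were low in plasma. Reads over all samples summed to 43930 for miR-106a-5p, 44617 for miR-18b-5p, 71223 for miR-20b-5p and 4950 for miR-363-3p, against a library depth of 206490 to 11814515 reads (median 1475030). The median library thus held 41, 39, 62 and 3 reads of them, in that order. miR-363-3p had no read in 263 libraries (29.3%), whereas miR-18b-5p was read in every library and the other two were each missing from 3. Each abundant paralog exceeded its member: miR-106a-5p reads amounted to 4.86% of those of miR-17-5p, miR-18b-5p to 18.8% of miR-18a-5p, miR-20b-5p to 1.90% of miR-20a-5p and miR-363-3p to 0.121% of miR-92a-3p. How reads that fit both a member and its paralog were counted is not given in the sources used here. For miR-486a-5p and miR-486b-5p, a pair of red cell miRNA with the same mature sequence, 42879762 and 42871245 reads were listed. The pair lay within 1% of each other in 82.1% of libraries. The members differ in sequence from their paralogs, so this pair does not show how reads that fit both were counted.

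Levels are given as log2 CPM, the log2 of read counts scaled to a common library size (CPM) with a small constant added, so a difference of 1 is 2-fold. A library without a read takes the value 0.23. Across the 32 groups (strain by treatment by time point), the mean level of miR-106a-5p ranged from 4.07 to 5.70, that of miR-18b-5p from 3.91 to 5.80, that of miR-20b-5p from 4.49 to 6.30 and that of miR-363-3p from 0.80 to 2.58. The highest mean of all 4 members was that of irradiated C3H mice at month 1, the group that the choice of members favors. The lowest was irradiated C3H at day 2 for miR-106a-5p and miR-18b-5p, irradiated C57Bl/6 at day 5 for miR-20b-5p and sham C57Bl/6 at month 4 for miR-363-3p. When the 32 group means were put in order, 31 of 31 neighboring steps were smaller than the spread within groups for each member (median SD 0.63, 0.72, 0.60 and 1.13). Steps between so many sorted means are small by construction, so this does not show that the groups are alike.

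**Figure D1:**
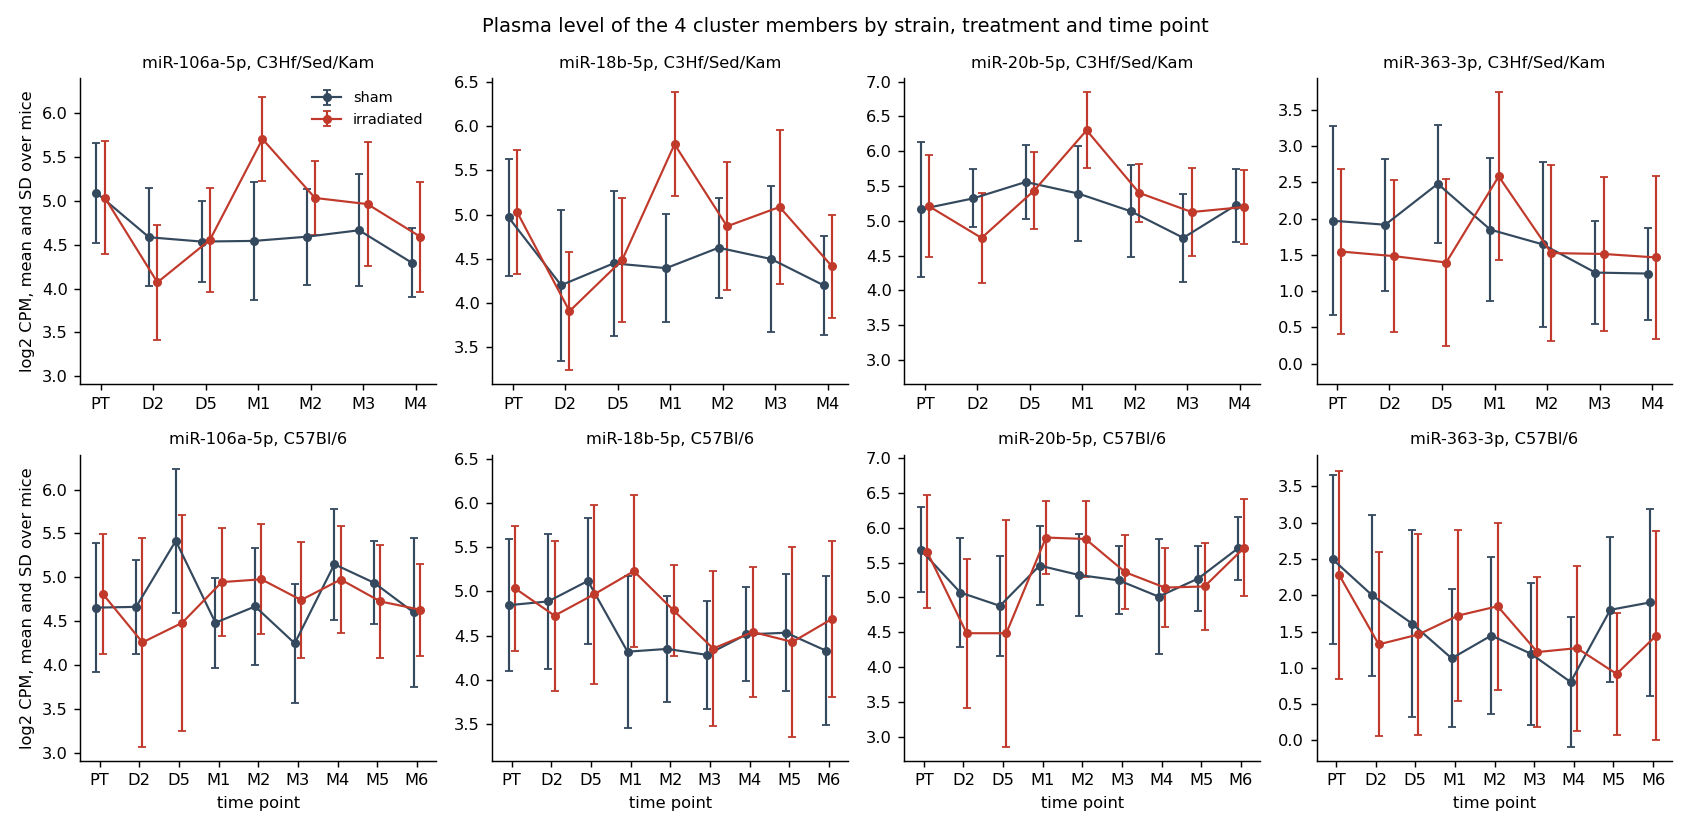
Mean level (log2 CPM, vertical axis; bars, SD over mice) of each member at each time point (PT, before irradiation; D, day; M, month) in irradiated (red) and sham (dark) mice, with C3Hf/Sed/Kam above and C57Bl/6 below. The irradiated C3Hf/Sed/Kam means peak at month 1 (5.70, 5.80, 6.30 and 2.58 from left to right), while the sham C57Bl/6 mean of miR-106a-5p peaks at day 5 (5.42).

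At month 1 after irradiation, all 4 members were higher in irradiated than in sham mice of both strains. In C3H mice miR-106a-5p was 5.70 ± 0.48 log2 CPM (SD, n = 58; lowest 4.41, median 5.74, highest 6.70) after irradiation and 4.54 ± 0.67 (SD, n = 32; lowest 3.22, median 4.37, highest 5.90) in sham mice. Every irradiated C3H mouse (58 of 58) lay above the sham median, although 39 of them still lay within the sham range. The fitted log2 fold change was 1.12 (SE 0.15), or 2.18-fold. miR-18b-5p had the largest separation, at 5.80 ± 0.59 (SD, n = 58; lowest 4.49, median 5.77, highest 7.42) against 4.40 ± 0.61 (SD, n = 32; lowest 3.01, median 4.50, highest 5.50). Of the irradiated mice 57 of 58 were above the sham median and 39 above the highest sham mouse, and the log2 fold change was 1.46 (SE 0.17), or 2.74-fold.

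miR-20b-5p, the most abundant member, was 6.30 ± 0.54 (SD, n = 58; lowest 4.36, median 6.29, highest 7.17) in irradiated C3H mice at month 1 and 5.39 ± 0.68 (SD, n = 32; lowest 2.93, median 5.47, highest 6.53) in sham mice, which gave a log2 fold change of 0.89 (SE 0.15). The groups overlapped more than for miR-18b-5p, with 19 irradiated mice above the highest sham value. miR-363-3p was 2.58 ± 1.16 (SD, n = 58; lowest 0.23, median 2.65, highest 5.08) against 1.85 ± 0.99 (SD, n = 32; lowest 0.23, median 1.80, highest 3.88), a log2 fold change of 1.00 (SE 0.40). At a median of 7.5 and 5.5 reads per library this is the least certain value, and 46 of 58 irradiated mice exceeded the sham median.

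The same comparison in C57Bl/6 mice gave smaller values for the abundant members. miR-106a-5p was 4.95 ± 0.61 (SD, n = 68; lowest 3.57, median 4.86, highest 6.18) in irradiated and 4.48 ± 0.51 (SD, n = 32; lowest 3.29, median 4.50, highest 5.49) in sham mice, which gave a log2 fold change of 0.52 (SE 0.14). miR-18b-5p was 5.23 ± 0.86 (SD, n = 68; lowest 2.82, median 5.32, highest 6.82) against 4.32 ± 0.86 (SD, n = 32; lowest 1.47, median 4.42, highest 5.40), with 32 of 68 irradiated mice above the highest sham mouse and a log2 fold change of 0.97 (SE 0.17). It again showed the clearest separation of the 4. miR-20b-5p was 5.86 ± 0.52 (SD, n = 68; lowest 4.70, median 5.94, highest 7.47) against 5.46 ± 0.57 (SD, n = 32; lowest 4.06, median 5.49, highest 6.48), a log2 fold change of 0.41 (SE 0.14). miR-363-3p, with no read in 18 of 68 irradiated and 14 of 32 sham libraries, was 1.72 ± 1.18 (SD, n = 68) against 1.13 ± 0.95 (SD, n = 32), a log2 fold change of 1.09 (SE 0.42).

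Of these 8 values 5 passed an adjusted p of 0.05 by edgeR, a count that the choice of members favored. It is given as a description and not as a test. With the mouse as a fixed replicate block in limma-voom, which compares samples within mice, 3 of 8 passed, all in C3H, and C57Bl/6 mice had 0.30 for miR-106a-5p and 0.73 for miR-18b-5p. Among all 483 miRNA, the share called higher at month 1 was 1.66% in each strain. Because the members were chosen by these same values, their counts cannot show an enrichment over that share. The difference between the strains at month 1, C57Bl/6 minus C3H, was -0.60 (SE 0.20) for miR-106a-5p, -0.49 (SE 0.23) for miR-18b-5p, -0.48 (SE 0.20) for miR-20b-5p and 0.09 (SE 0.46) for miR-363-3p.

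**Figure D2:**
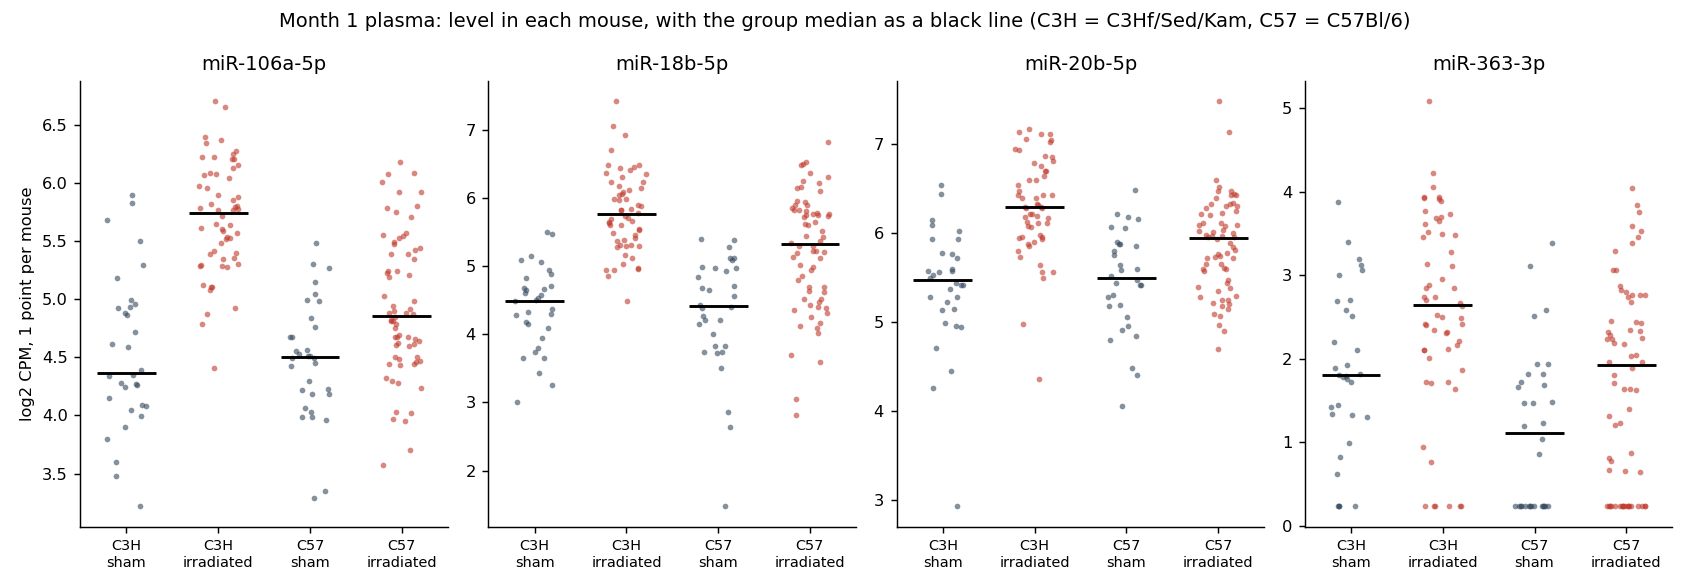
Level of each member (log2 CPM, vertical axis) in every mouse at month 1, with 1 point per mouse, the group median as a black line, and sham and irradiated mice of each strain side by side (C3H, C3Hf/Sed/Kam; C57, C57Bl/6). For miR-18b-5p 39 of 58 irradiated C3H and 32 of 68 irradiated C57Bl/6 mice lie above every sham mouse of their strain, and points on the floor of the miR-363-3p panel are libraries without a read.

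Month 1 levels were also read mouse by mouse, as a description of the samples by which the members were chosen. Of the irradiated C3H mice 45 of 58 (77.6%) lay above the sham median for all 4 members and 55 of 58 for the 3 abundant ones, against 6 and 9 of 32 sham mice. In C57Bl/6 mice 25 of 68 irradiated mice (36.8%) lay above the sham median for all 4 members, against 6 of 32 sham mice (18.8%). No irradiated mouse of either strain was at or below the sham median for every member, whereas 4 C3H and 7 C57Bl/6 sham mice were.

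Month 1 values were positive in each cohort and each sex. Both are parts of the samples by which the members were chosen, so these values are not independent support. In C3H mice the log2 fold change of cohorts 1 and 2 was 0.98 and 1.26 for miR-106a-5p, 1.44 and 1.49 for miR-18b-5p, 0.96 and 0.80 for miR-20b-5p and 0.91 and 1.13 for miR-363-3p. For C57Bl/6 mice it was 0.62 and 0.44, 0.96 and 0.96, 0.46 and 0.37, and 0.55 and 1.91 in the same order. miR-18b-5p was thus nearly equal in both cohorts of both strains, and miR-363-3p in C57Bl/6 mice differed most between cohorts. For females and males the C3H values ranged from 0.58 to 1.52 and from 0.67 to 1.39, and the C57Bl/6 values from 0.40 to 1.05 and from 0.41 to 1.19. The difference between the sexes in the month 1 effect, which did not enter the choice of members, passed for 0 of 8 values by edgeR (0 of 8 also by DESeq2 and 0 of 8 at an unadjusted p under 0.05, with 0% and 0.621% of all miRNA called in C3H and C57Bl/6). The largest was 0.45 (95% interval -0.10 to 1.00) for miR-20b-5p in C3H mice among the abundant members, where females had 1.12 and males 0.67.

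**Figure D3:**
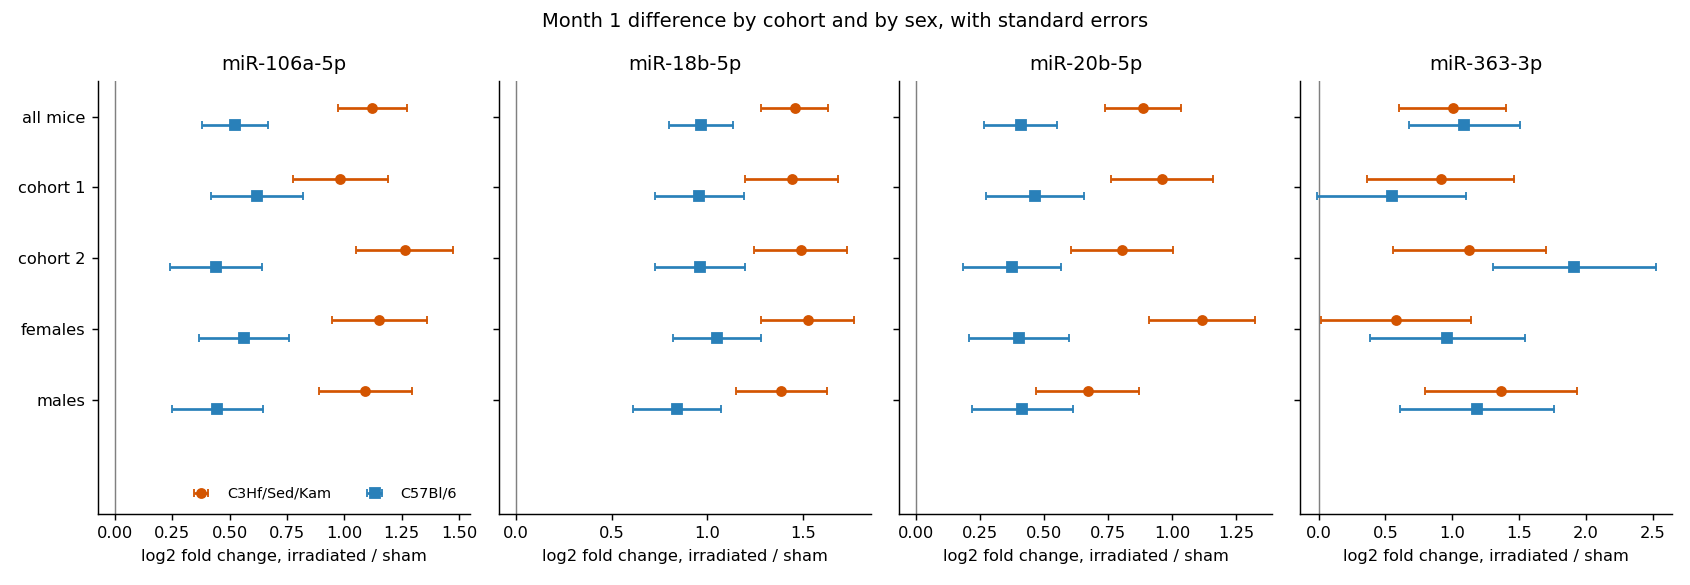
Log2 fold change of irradiated over sham mice at month 1 (horizontal axis; bars, standard error) for all mice, each cohort and each sex, with C3Hf/Sed/Kam as orange circles and C57Bl/6 as blue squares. All 40 points lie above 0, which the choice of members favored. For the 3 abundant members the C3Hf/Sed/Kam point lies to the right of the C57Bl/6 point in each row.

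Each arm at month 1 was also set against its own level before irradiation, again as a description. In irradiated C3H mice the members were 0.62, 0.73, 1.04 and 1.23 log2 higher at month 1 than before irradiation (miR-106a-5p, miR-18b-5p, miR-20b-5p and miR-363-3p), while sham C3H mice had -0.53, -0.63, 0.10 and -0.45. In irradiated C57Bl/6 mice the same differences were 0.13, 0.26, 0.13 and -0.87, and in sham C57Bl/6 mice -0.25, -0.53, -0.25 and -1.95. The starting levels differed between cohorts. Before irradiation, miR-20b-5p averaged 4.52 to 4.79 in the C3H groups of cohort 1 by treatment and sex and 5.62 to 5.75 in those of cohort 2. A cohort and the handling of its samples cannot be told apart here.

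Whether the members differed between irradiated and sham mice at other times was tested by quasi-likelihood in edgeR, the p-values being adjusted over all 483 miRNA. Before irradiation, 0 of 8 values passed, as did 0% of all miRNA in both strains, and 0 of 8 had an unadjusted p under 0.05. After irradiation but outside month 1, 1 of 48 values passed, against 3.8% of all results that passed at those time points. By DESeq2 the count was also 1 of 48. At an unadjusted p under 0.05 by edgeR there were 9 of 48, and the share of all results at that threshold was not counted.

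The value that passed was a lower level of miR-106a-5p in irradiated than in sham C57Bl/6 mice on day 5. Its level was 4.48 ± 1.23 log2 CPM (SD, n = 32; lowest 0.23, median 4.69, highest 6.10) in irradiated and 5.42 ± 0.82 (SD, n = 16; lowest 4.05, median 5.39, highest 7.21) in sham mice. Only 4 of 32 irradiated mice lay above the sham median, and 2 irradiated libraries had no read. Before irradiation the same 2 treatments stood at 4.81 ± 0.68 (SD, n = 64) and 4.66 ± 0.74 (SD, n = 32). That start also holds the mice bled on day 2. The sham level was above the start on day 5, by a fitted 0.84 (SE 0.20). The irradiated mean was below its start by less than the SD, and the 2 libraries without a read pull it down. The log2 fold change was -0.86 (SE 0.20, adjusted p = 0.00046 by edgeR), at a time when 14.1% of all miRNA were called in this strain and 7.87% were called lower. That SE rests on a spread estimated over all 32 groups. A fit of only the 2 groups compared gave -0.88 (SE 0.28, adjusted p = 0.0363 by edgeR). By cohort the log2 fold change was -0.34 (SE 0.29) in cohort 1 and -1.27 (SE 0.28) in cohort 2. The 4 sham females of cohort 2 were the highest group by cohort and sex, at 6.26 ± 1.03 (SD, n = 4), while the other sham groups averaged 4.82 to 5.31 and the irradiated groups 4.24 to 4.85. Without the females of cohort 2, a subset chosen after seeing the data, the value was -0.38 (adjusted p = 0.389 by edgeR), and in a fit of cohort 1 alone it was -0.26 (adjusted p = 0.662 by edgeR). The difference between the cohorts itself was not tested.

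Other miRNA were called in both directions on that day. The paralog miR-17-5p was likewise lower in irradiated than in sham mice (log2 fold change -0.62, SE 0.20, adjusted p = 0.0192 by edgeR), at 9.15 against 9.90 log2 CPM, and both groups were above their start (8.74 and 8.58). It was the only one of 10 tested miRNA of its cluster to pass, 8 of the 10 having positive values (median 0.19), and the log2 ratio of miR-106a-5p to miR-17-5p in irradiated minus sham mice was -0.19 (SE 0.30). The miR-106b to miR-25 cluster had 1 of 6 called, miR-93-5p (0.46, adjusted p = 0.0234 by edgeR), and the X-linked neighbors had 3 of 12, all higher. Of the 5 red blood cell miRNA, 1 was called higher, miR-144-5p (1.52). Of the 5 leukocyte miRNA, 3 were called lower in irradiated C57Bl/6 mice on day 5, including miR-150-5p, a lymphocyte miRNA (log2 fold change -1.10, adjusted p = 3.07e-11 by edgeR). Of the 3 myeloid cell and platelet miRNA, 1 was called lower, miR-223-3p (-1.12), while the other two had -0.0029 and 0.04 and the summed level had medians of 30908 CPM in irradiated and 32692 CPM in sham mice. The summed level of the 5 leukocyte miRNA was 6263 to 25812 CPM (median 8833) in irradiated and 10642 to 24323 CPM (median 14486) in sham mice, with 0 markers at 0. Their part in the miR-106a-5p result was not tested. miR-18b-5p, miR-20b-5p and miR-363-3p had values of 0.00, 0.04 and -0.17 on the same day, and none passed the test.

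On day 2 in C3H mice all 4 members had negative values, of which none passed. miR-106a-5p was 4.07 ± 0.65 (SD, n = 32; lowest 2.05, median 4.20, highest 5.22) in irradiated and 4.58 ± 0.56 (SD, n = 16; lowest 3.48, median 4.71, highest 5.28) in sham mice. Only 3 of 32 irradiated mice were above the sham median, with a log2 fold change of -0.51 (95% interval -0.89 to -0.12, adjusted p = 0.131 by edgeR). miR-20b-5p was 4.75 ± 0.65 (SD, n = 32) against 5.32 ± 0.42 (SD, n = 16), a log2 fold change of -0.50 (95% interval -0.89 to -0.11, adjusted p = 0.138 by edgeR). miR-18b-5p and miR-363-3p had -0.35 and -0.42, and 4.97% of all miRNA were called at this time. All 5 leukocyte miRNA were lower in irradiated than in sham C3H mice on day 2, their summed level being 6333 to 14742 CPM (median 9926) in irradiated and 7798 to 39687 CPM (median 21519) in sham mice. Whether this bears on the members was not tested.

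From month 2 on, no member passed the test in either strain. In C3H mice the log2 fold changes of the abundant members ranged from -0.02 to 0.68 over months 2 to 4, the highest being that of miR-18b-5p at month 3 (95% interval 0.21 to 1.14, adjusted p = 0.157 by edgeR). In C57Bl/6 mice they ranged from -0.18 to 0.52 over months 2 to 6, the highest being that of miR-20b-5p at month 2 (95% interval 0.13 to 0.92, adjusted p = 0.142 by edgeR). miR-363-3p varied more widely, from -1.56 at month 5 (adjusted p = 0.155 by edgeR) to 1.12 at month 4 in C57Bl/6 mice, with SEs of 0.56 to 0.76. The month 4 value had a 95% interval of -0.10 to 2.34 (adjusted p = 0.329 by edgeR).

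The strains' responses were compared over the 5 shared time points after irradiation other than month 1. By edgeR's quasi-likelihood F test 0 of 4 members passed, against 3.31% of all miRNA, and 1 had an unadjusted p under 0.05. That was miR-106a-5p (adjusted p = 0.131 by edgeR), and DESeq2 called 1 of 4. Its strain difference was known beforehand, so neither result is fresh evidence. On day 5 alone, where it was largest, its difference (C57Bl/6 minus C3H) was -0.94 (SE 0.29). It did not pass there (adjusted p = 0.0528 by edgeR, with 1.86% of all miRNA called). On that day miR-18b-5p, miR-20b-5p and miR-363-3p had -0.0025, 0.15 and 0.87. The adjusted p of the remaining 3 members in the F test was at least 0.943 by edgeR.

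To see whether the difference at month 1 extended to the whole family, the paralogs were set beside the members. The members were chosen by their month 1 values and the paralogs were not, so the choice favors a gap between them. miR-17-5p, which differs from miR-106a-5p at 1 base, had a month 1 log2 fold change of 0.08 (95% interval -0.21 to 0.37) in C3H and 0.04 (-0.24 to 0.32) in C57Bl/6 mice. miR-18a-5p had 0.18 (-0.07 to 0.43) and 0.19 (-0.05 to 0.44), and miR-20a-5p had -0.15 (-0.33 to 0.04) and 0.07 (-0.11 to 0.25). miR-92a-3p, made from both clusters, had 0.07 (-0.17 to 0.31) and 0.04 (-0.20 to 0.27), and miR-19b-3p, likewise made from both, had -0.16 and -0.02. None of these paralogs passed the test at month 1 in either strain.

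**Figure D4:**
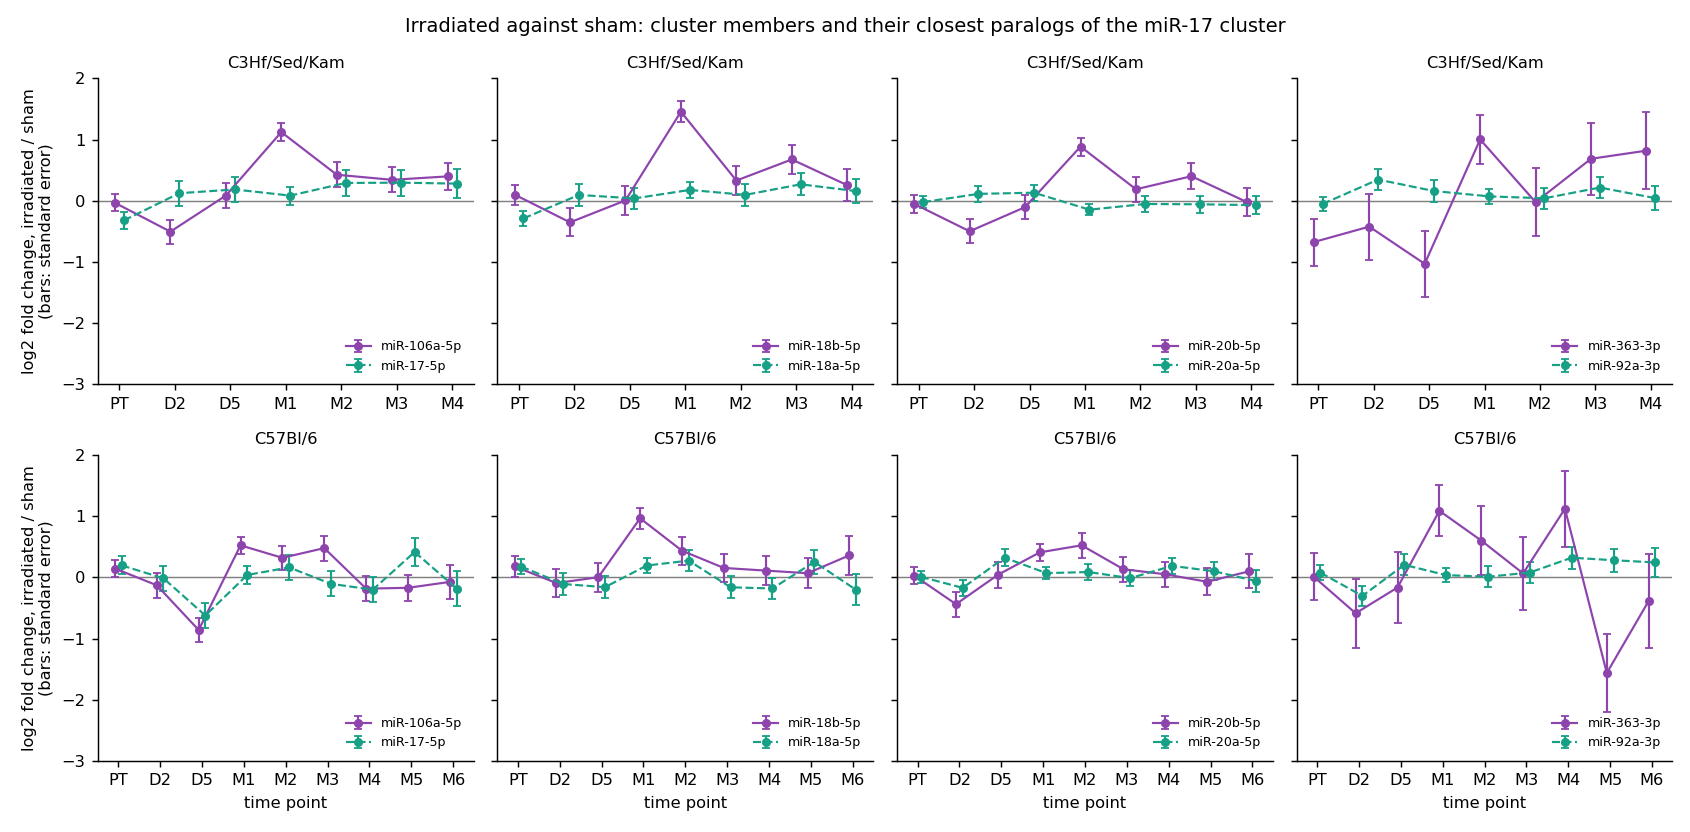
Log2 fold change of irradiated over sham mice (vertical axis; bars, standard error) by time point for each member (solid purple) and its closest paralog (dashed green), with C3Hf/Sed/Kam above and C57Bl/6 below. At month 1 the members, chosen by these values, sit between 0.41 and 1.46 and the paralogs between -0.15 and 0.19. On day 5 in C57Bl/6 mice miR-106a-5p (-0.86) and miR-17-5p (-0.62) lie together.

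The ratio of a member to its paralog was taken within each library, with 0.5 added to both counts, so that libraries with no read of miR-363-3p have a ratio set by depth. The log2 ratio of miR-106a-5p to miR-17-5p averaged -3.54 ± 0.38 (SD, n = 58) in irradiated and -4.64 ± 0.64 (SD, n = 32) in sham C3H mice at month 1, a difference of 1.10 (SE 0.12). For miR-18b-5p to miR-18a-5p the difference was 1.25 (SE 0.12), for miR-20b-5p to miR-20a-5p 1.06 (SE 0.12) and for miR-363-3p to miR-92a-3p 0.91 (SE 0.29). For C57Bl/6 mice these differences were 0.45, 0.72, 0.34 and 1.08 (SEs 0.13, 0.20, 0.09 and 0.37). On day 2 in C3H mice the ratios went the other way, with -0.61 (SE 0.21) for miR-106a-5p to miR-17-5p and -0.67 (SE 0.15) for miR-20b-5p to miR-20a-5p. A difference in such a ratio shows unequal change and not which of the miRNA changed, and these ratios are given without a test.

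The 2 related clusters and the miRNA that neighbor this one on chromosome X were counted as lists. At month 1, 0 of 10 tested miRNA of the miR-17 to miR-92a cluster passed in either strain (median log2 fold change -0.12 in C3H and 0.007 in C57Bl/6, against -0.05 in both strains for all miRNA). The miR-106b to miR-25 cluster also had 0 of 6 (median -0.08 and 0.02), among them the abundant miR-25-3p (-0.11 and 0.00) and miR-93-5p (-0.04 and 0.06). The X-linked neighbors, miRNA of the miR-322 to miR-450 region, had 0 of 12 (median 0.03 and -0.09), including miR-322-5p, a miRNA linked to cell cycle arrest (0.09 and 0.00). At an unadjusted p under 0.05 these lists had 0, 0 and 2 miRNA in C3H and 0, 0 and 1 in C57Bl/6 mice. None of the 3 lists thus had a called miRNA at month 1, when the share called among all miRNA was 3.31% (C3H) and 3.73% (C57Bl/6). At such shares lists of this length can hold none.

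Of the other arms of the 6 hairpins, miR-363-5p alone reached the abundance needed for a test. miR-106a-3p and miR-19b-2-5p had 0 reads in all libraries together, miR-92a-2-5p had 2, miR-20b-3p had 59, miR-18b-3p had 320 and miR-363-5p had 1463. At month 1, miR-20b-3p had 8 reads in 3 of 58 irradiated C3H libraries and 12 reads in 2 of 68 irradiated C57Bl/6 libraries, and 0 reads in the 32 sham libraries of either strain. miR-18b-3p had 27 reads of 93995375 in irradiated and 12 of 67772566 in sham C3H mice. miR-363-5p had a log2 fold change of 1.00 (SE 0.49, adjusted p = 0.364 by edgeR) in C3H and 0.25 in C57Bl/6 mice at month 1.

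Plasma can carry miRNA released from blood cells, so marker miRNA of these cells were read at month 1. Of the 5 red blood cell miRNA, 0 passed by edgeR in either strain (0 in C3H and 1 in C57Bl/6 mice at an unadjusted p under 0.05), and their summed level was 42760 to 161080 CPM (median 73811) in irradiated and 38817 to 151937 CPM (median 68099) in sham C3H mice. The C57Bl/6 medians were 46738 and 47952 CPM. Of the 5 leukocyte miRNA, miR-150-5p was lower in irradiated C3H mice (log2 fold change -0.62, adjusted p = 8.16e-07 by edgeR) and none passed in C57Bl/6 mice. The medians of their summed level were 16722 and 19338 CPM in C3H and 20230 and 19193 CPM in C57Bl/6 mice. Of the 3 myeloid cell and platelet miRNA, 0 passed in either strain (3 in C3H and 0 in C57Bl/6 mice at an unadjusted p under 0.05, with a median log2 fold change of 0.27 and 0.02), with medians of 18324 and 15513 CPM in C3H and 27493 and 25511 CPM in C57Bl/6 mice. None of the markers was at 0 in a whole group, and their part in the members' values was not tested.

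Before any treatment, the strains differed in 3 of 4 members by edgeR, against 50.7% of all miRNA (21.9% higher and 28.8% lower in C57Bl/6 mice). miR-106a-5p was lower in C57Bl/6 mice (log2 difference -0.31, SE 0.10, adjusted p = 0.00518), whereas miR-20b-5p was higher (0.43, SE 0.10, adjusted p = 9.32e-05). The fit held no cohort term, and the level of miR-20b-5p before irradiation also differed between the C3H cohorts, as given above. A strain and the handling of its samples cannot be told apart here. miR-363-3p was higher in C57Bl/6 mice as well (0.76, SE 0.28, adjusted p = 0.0151). In a fit with a cohort term for each strain, where the strain difference is that of cohort 1, miR-363-3p had 0.35 (adjusted p = 0.379 by edgeR). miR-18b-5p differed by -0.05 (95% interval -0.28 to 0.17). The members thus did not share a direction. Their paralogs were lower in C57Bl/6 mice where they differed, with miR-17-5p at a log2 difference of -1.96 (adjusted p = 2.07e-60 by edgeR), miR-18a-5p at -1.44 and miR-20a-5p at -0.36, while miR-92a-3p had -0.09 (adjusted p = 0.431 by edgeR). Of the 12 X-linked neighbors 8 were higher in C57Bl/6 mice.

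No member passed the test between the sexes before irradiation. By edgeR, 0 of 8 values passed, against 14.5% (C3H) and 14.7% (C57Bl/6) of all miRNA, and 0 of 8 had an unadjusted p under 0.05. DESeq2 called 0 of 8. Females minus males gave 0.02, 0.11, 0.01 and 0.75 in C3H mice for miR-106a-5p, miR-18b-5p, miR-20b-5p and miR-363-3p, and -0.07, -0.22, 0.14 and -0.39 in C57Bl/6 mice. The 95% intervals of the abundant members lay between -0.53 and 0.42.

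In sham mice later levels were compared with those before treatment. From month 2 on the sham groups hold cohort 1 alone, while the start pools both cohorts, so cohort and time are mixed in those values. By edgeR, 20 of 56 values passed, 19 of them lower, against 26.6% of all results, or 12.7% for lower ones. Sham mice at month 1 also entered the choice of members, and outside that month 16 of 48 values passed, 15 of them lower, where 26.3% of all results were called. In C3H sham mice 11 of 24 passed, all lower, where 26.2% of all results were called and 13.7% were called lower. With cohort 1 set against its own start, a comparison added once the values were known, 12 of 56 values passed, 9 of them lower, and from month 2 on 6 of 32 passed in place of 10.

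In both cohorts of C3H sham mice together miR-106a-5p was lower than at the start on day 2, on day 5 and at months 1, 2 and 4 (log2 differences -0.55, -0.63, -0.53, -0.54 and -0.90), and within cohort 1 it passed on day 2 (-0.74) and at month 4 (-0.87). miR-18b-5p was lower on day 2 and at months 1 and 4 (-0.77, -0.63 and -0.86), and at all 3 also within cohort 1 (-1.06, -1.03 and -0.97). miR-363-3p was lower at months 3 and 4 (-1.54 and -1.65), also within cohort 1 (-2.02 and -2.09). miR-20b-5p was called lower at month 3 (-0.56), but within cohort 1 it had 0.04 there (adjusted p = 0.912 by edgeR) and was called higher on day 5 and at month 1 (0.88 and 0.67).

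In C57Bl/6 sham mice 9 of 32 values passed, where 26.9% of all results were called. miR-363-3p was lower at months 1, 3 and 4 (-1.95, -1.77 and -2.54), of which month 4 passed within cohort 1 (-1.95). miR-20b-5p was lower on days 2 and 5 and at month 4 (-0.57, -0.81 and -0.61), of which day 2 passed within cohort 1 (-0.77). miR-18b-5p was lower at months 1 and 3 (-0.53 and -0.63), and neither passed within cohort 1 (-0.37 and -0.61). The 1 higher value that passed was miR-106a-5p on day 5, which rose by 0.84 (SE 0.20, adjusted p = 0.000292 by edgeR) and is the sham group of the day 5 comparison above. Within cohort 1 it had 0.53 on day 5 (adjusted p = 0.180 by edgeR), and 0.67 at month 4, where it passed. The cohorts did not share these changes evenly. The month 1 value of miR-363-3p was -0.60 in cohort 1 and -3.34 in cohort 2 of C57Bl/6 sham mice, and that of miR-20b-5p was 0.66 and -0.28 in C3H sham mice.

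Whether irradiated mice that were still sampled at the last time point differed at month 1 from those that were not was tested in cohort 1. By edgeR 0 of 8 values passed, as did 0% of all miRNA in both strains, and limma-voom also called 0 of 8. The 1 value with an unadjusted p under 0.05 was miR-18b-5p in C57Bl/6 mice, at 6.00 ± 0.67 log2 CPM (SD, n = 8; lowest 4.99, median 6.28, highest 6.82) in those sampled to month 6 and 5.18 ± 0.73 (SD, n = 28; lowest 3.60, median 5.36, highest 6.16) in the rest. The difference was 0.82 (95% interval 0.37 to 1.27, adjusted p = 0.168 by edgeR), and the ranges overlapped. In C3H mice it was -0.28 (95% interval -0.70 to 0.15), for 17 and 13 mice.

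Across single samples the members were only loosely alike. After the mean of each of the 32 groups was taken away, Pearson's r between pairs of members ranged from 0.17 to 0.34 over all samples, which share library depth and mice. With their own paralogs they reached 0.28 (miR-106a-5p), 0.33 (miR-18b-5p), 0.47 (miR-20b-5p) and 0.23 (miR-363-3p). Among the miRNA with a mean of at least 5 log2 CPM, the most alike to miR-106a-5p was miR-142a-3p (0.45), a miRNA of blood cells, followed by miR-29b-3p, miR-98-5p, miR-223-3p and let-7d-5p (0.42 to 0.39). For miR-18b-5p it was let-7i-5p (0.60), then miR-142a-3p, miR-98-5p, let-7a-5p and miR-29b-3p. For miR-20b-5p it was miR-19b-3p (0.53), a mature miRNA of the same cluster and of the miR-17 to miR-92a cluster, then miR-185-5p, miR-142a-5p, miR-130a-3p and miR-322-5p. For miR-363-3p it was miR-181a-5p (0.44), then miR-26a-5p, miR-181b-5p, miR-29b-3p and miR-181d-5p. Of the members, miR-20b-5p alone was abundant enough to be a candidate, and it was not among the 5 most alike of the others (163 or 164 candidates each). Samples of 1 mouse were barely more alike than those of different mice, with intraclass correlations of 0.050, 0.013, 0.061 and 0.017 for the 4 members in the order first given.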

How the data were processed

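The authors left out plasma with excess hemolysis, prepared QIAseq miRNA libraries, trimmed the reads and aligned them to mouse miRNA (mm10, per the labels) with a BaseSpace small RNA application. They deposited whole-number read counts per mature miRNA, without normalization. The miRBase release and the use of molecular identifiers are not given in the sources used here, and reads may be copies of 1 molecule. The SEs of the edgeR values were derived from the log2 fold change and the F statistic of its test. The 95% intervals come from these SEs with a normal quantile and include the spread between mice.

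Groups, sex, cohort and mouse number came from the labels. Counts were normalized by TMM (factors 0.372 to 1.59), and the 483 miRNA kept by filterByExpr (99.99% of reads) were tested with edgeR 4.0.16 (R 4.3.3) by quasi-likelihood, with 32 group means fitted to all samples, Benjamini-Hochberg adjustment within a contrast and a threshold of 0.05. log2 CPM used a prior count of 2 and ratios one of 0.5. Follow-up, sex and cohort values came from models with those terms. limma 3.58.1, DESeq2 1.42.0 and the study's quantile-normalized log2 RPM served as alternatives. The procedure was also run on simulated counts drawn without an effect of mouse or cohort, and the outcome is not given here.

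The members, lists and tests were chosen with earlier results of these data known. Other miRNA were named as the most abundant of a fixed list, the closest paralogs, or the 5 most alike; miR-486a-5p and miR-486b-5p were chosen after their values were seen. The labels' mouse numbers pair samples of different time points: after group means were removed, samples of 1 mouse correlated at 0.0813 over 1962 pairs and 164 miRNA, against -0.00082 for different mice. The mouse was used as a replicate block in alternatives.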

Additional observations from a re-analysis of the deposited data

How the results depend on the processing

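The month 1 log2 fold changes, whose sign the choice of members favored, were positive for all 8 combinations of member and strain under 14 of 15 alternatives. The other one added the counts of each member and its paralog, and the sum is mostly paralog reads by construction. It gave 0.18 for miR-106a-5p, 0.44 for miR-18b-5p and -0.094 for miR-20b-5p in C3H mice and 0.037 for miR-363-3p in C57Bl/6 mice. Among C57Bl/6 sham mice, summed counts also turned the values of miR-106a-5p at day 2 (0.86) and of miR-18b-5p at month 4 (0.43), that of miR-20b-5p at month 4 in C3H sham mice (0.33), and the strain differences before irradiation of miR-20b-5p (-0.29) and miR-363-3p (-0.00843). They gave 36 calls over time in sham mice and 2 between the sexes before irradiation.

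The 1 call after irradiation outside month 1 became 0 with cohort 1 alone and without the C57Bl/6 females of cohort 2 on day 5 (chosen after seeing the data), and 2 with quantile-normalized log2 RPM in limma, which added miR-363-3p in C3H mice on day 5 (-1.13, adjusted p = 0.0447). The strain difference outside month 1 went from 0 to 1 of 4 with DESeq2, with its size factors in edgeR and with no filter on low counts. The value called was that of miR-106a-5p, whose strain difference was known beforehand, and the cause was not tested. When limma-voom took the mouse as a replicate block, the day 5 value of miR-106a-5p in C57Bl/6 mice was -0.78 (adjusted p = 0.0107), or -1.07 (adjusted p = 0.00553) as a fixed block. At month 1 in C57Bl/6 mice the fixed block gave 0.30 (SE 0.21) for miR-106a-5p and 0.73 (SE 0.24) for miR-18b-5p. The replicate block that is not fixed gave 0.47 (SE 0.14) and 0.94 (SE 0.16) there. The calls over time in sham mice numbered 18 and 17 with these blocks, 12 within cohort 1 alone (chosen after seeing the data), where miR-20b-5p at month 3 in C3H mice turned to 0.044, and 15 to 25 under the other alternatives apart from the summed counts. The counts for strain and sex were the same with limma-voom's block. Depth limits miR-363-3p most, at a median of 3 reads per library.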
